A study of Drosophila melanogaster with 6 samples.

Results

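The proteasome subunit genes of Drosophila melanogaster were examined in embryos of a clbn knock-out and of w1118. Members were the genes whose symbol begins Prosalpha, Prosbeta, Rpn or Rpt followed by a digit and whose probe set is annotated with that gene alone, with the brightest probe set by the mean of the 6 arrays standing for each gene. This rule, which used no difference between genotypes, found 40 genes of 11982 measured, and each of the 40 had a single probe set. They comprised 12 ubiquitous subunits of the core particle, 14 ubiquitous subunits of the regulatory particle and 14 testis-type paralogues, recognised by the T or R after the subunit's number. Another 8 genes of the gene table fit the name pattern but were not analysed here: Prosalpha1 and its paralogue Prosalpha1R share a probe set, and Prosbeta1, Rpt1, Rpt6, Rpt6R, Rpn9 and Rpn10 are not named in the probe annotation used.

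Each of the 6 samples was RNA of whole embryos gathered between 0 and 24 h from stocks maintained at 25 °C, and was hybridised to a separate Affymetrix array. The control group, w1118, is labelled wild type and had 3 arrays. The other group, labelled clbn knock-out with w1118 as its strain background, also had 3 arrays. Clbn (Caliban) is the fly homologue of NEMF, a factor of ribosome-associated quality control. The labels do not describe the knock-out allele, a backcross or the origin of the replicates, so p-values measure the spread between these samples, which may be partly technical, and any effect of losing clbn cannot be told apart from whatever else distinguishes the 2 stocks. The window spans all of embryogenesis, and in such bulk RNA fewer cells of a type and less RNA per cell cannot be told apart.

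The proteasome degrades proteins tagged with ubiquitin. Its barrel-shaped core particle stacks outer rings of alpha subunits, which gate entry, on inner rings of beta subunits, some of which carry the proteolytic sites. The regulatory particle caps the barrel, with a base of ATPases that unfold substrates and a lid that removes ubiquitin. In ribosome-associated quality control, incomplete chains from stalled ribosomes are ubiquitinated and passed to the proteasome. Drosophila also has duplicated subunit genes, many of them used in the male germ line.

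All values are log2 signals of a probe set as deposited, and signals of different probe sets were not compared as amounts of RNA. A log2 difference is the mean of the 3 knock-out arrays minus that of the 3 w1118 arrays, and the threshold for calling a gene changed was an adjusted p of 0.05 in limma. The array medians lay between 6.17 and 6.36 and the first quartiles between 4.28 and 4.36. Knock-out array 1 stood apart: its 3′ signal exceeded its 5′ signal by 1.24 log2 over the actin, eIF-4a and GAPDH controls, against 0.667 to 0.779 on the other 5 arrays. This control did not separate the genotypes, at a mean of 0.744 in w1118 and 0.88 in the knock-out (exact 2-sided permutation p = 0.8, where 0.1 is the smallest possible). The targeted gene Clbn read 7.86, 8.25 and 8.44 in w1118 and 5.42, 5.27 and 5.14 in the knock-out (log2 difference −2.91, SE 0.15, limma adjusted p = 7.01e-05). It was lower on every knock-out array, although the place of its probes relative to the sequence changed in the knock-out was not analysed here. Of the embryonic patterning markers 6 were measured, and 0 had a mean below the first quartile.

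None of the 40 proteasome genes was called changed by limma, 0 higher and 0 lower, where 4.51% of all 11982 genes were called, 1.88% higher and 2.63% lower. At an unadjusted p below 0.05 there were 4 of the 40, namely Prosbeta3, Prosbeta6, Rpn2 and Prosbeta2R2, beside 22.8% of all genes. Knock-out and w1118 arrays were fully separate for 6 of the 40, all higher in the knock-out, beside 28.8% of all genes (15.7% higher and 13.1% lower). The median log2 difference of the 40 was 0.05, and that of all genes 0.02. Differences ran from −0.16 to 0.45, and the 95% intervals of all 40 lay between −0.37 and 0.76, that is, between 0.772-fold and 1.7-fold. The labels state no pairing, and the replicate number was taken to pair the samples because of correlations in these same data. With that number as a block, 1 of the 40 was called, Prosbeta3, beside 6.44% of all genes.

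**Figure D1:**
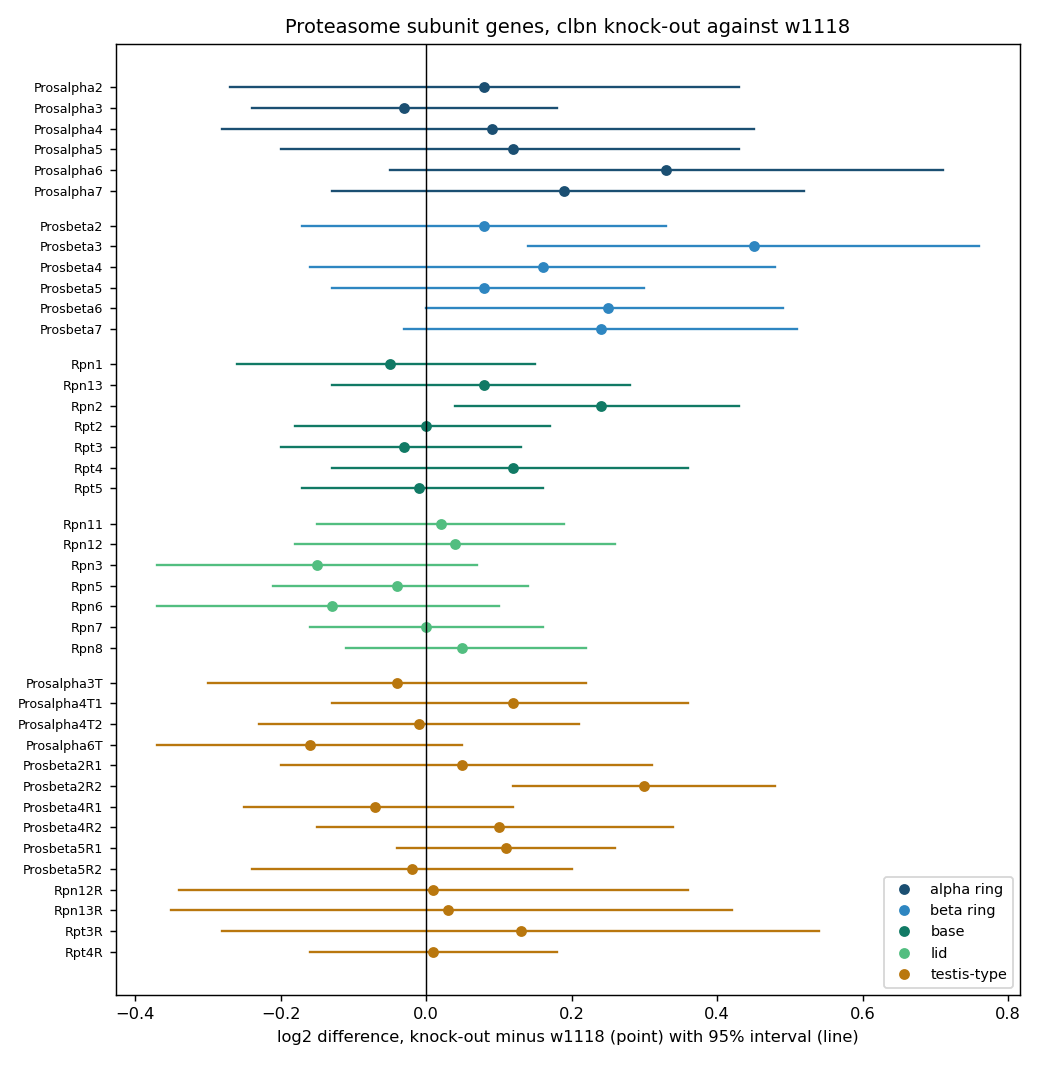
Log2 difference between clbn knock-out and w1118 (horizontal axis, point) with its 95% interval from the limma fit (line) for each of the 40 proteasome genes, grouped as alpha ring, beta ring, base, lid and testis-type paralogues. Prosbeta3 has the highest difference, 0.45, and every interval lies between −0.37 and 0.76.

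None of the 12 ubiquitous core particle genes passed the test, and 11 of them had a difference above 0, with a median of 0.14. Of the 14 regulatory particle genes 6 had a difference above 0, with a median of 0.00, and among all genes 56% did. These counts depended on the setting: with median centring, which moves the median of all genes to 0.10, 12 of 12 core and 12 of 14 regulatory genes lay above 0, and with array weights 8 and 9 did, at a median of 0.02 in both particles. The difference between the particles is a description and was not tested.

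In the alpha ring, which opens and closes the entrance to the barrel, the median difference was 0.10 over 6 genes. The largest was that of Prosalpha6, which read 11.11, 11.24 and 10.81 in w1118 and 11.68, 11.36 and 11.11 in the knock-out. The genotypes overlapped, since w1118 array 2 lay above knock-out array 3, and the difference was 0.33 (SE 0.16, limma adjusted p = 0.328). Prosalpha7 had a difference of 0.19 (95% interval −0.13 to 0.52), and Prosalpha5 one of 0.12 (−0.20 to 0.43). Prosalpha2 and Prosalpha4 stood at 0.08 and 0.09. Prosalpha3 was the single core gene below 0, at −0.03 (−0.24 to 0.18).

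In the beta ring all 6 measured genes lay above 0, with a median of 0.20. Prosbeta3, a subunit without a proteolytic site, had the largest difference of the 40. It read 11.52, 11.42 and 11.22 in w1118, a mean of 11.39 ± 0.15 (SD, n = 3). In the knock-out it read 12.12, 11.70 and 11.70, a mean of 11.84 ± 0.24 (SD, n = 3). Every knock-out array was above every w1118 array, and the difference was 0.45, or 1.37-fold (SE 0.13, limma adjusted p = 0.121). With the replicate block the difference was the same and the limma adjusted p was 0.0425. Over all alternatives its adjusted p ranged from 0.0425 to 0.358.

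Prosbeta6 read 11.32, 11.38 and 11.06 in w1118 and 11.61, 11.39 and 11.51 in the knock-out. These genotypes did not overlap either, by the narrowest of margins, with a difference of 0.25 (SE 0.11, limma adjusted p = 0.264). Prosbeta7 also separated the genotypes, at up to 11.83 in w1118 and from 11.85 in the knock-out, with a difference of 0.24 (limma adjusted p = 0.328). The remaining beta genes overlapped. Prosbeta4 had a difference of 0.16. Prosbeta2, which carries the trypsin-like site, and Prosbeta5, which carries the chymotrypsin-like site, each had a difference of 0.08 (95% intervals −0.17 to 0.33 and −0.13 to 0.30). The gene for the subunit with the caspase-like site, Prosbeta1, was not analysed here.

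**Figure D2:**
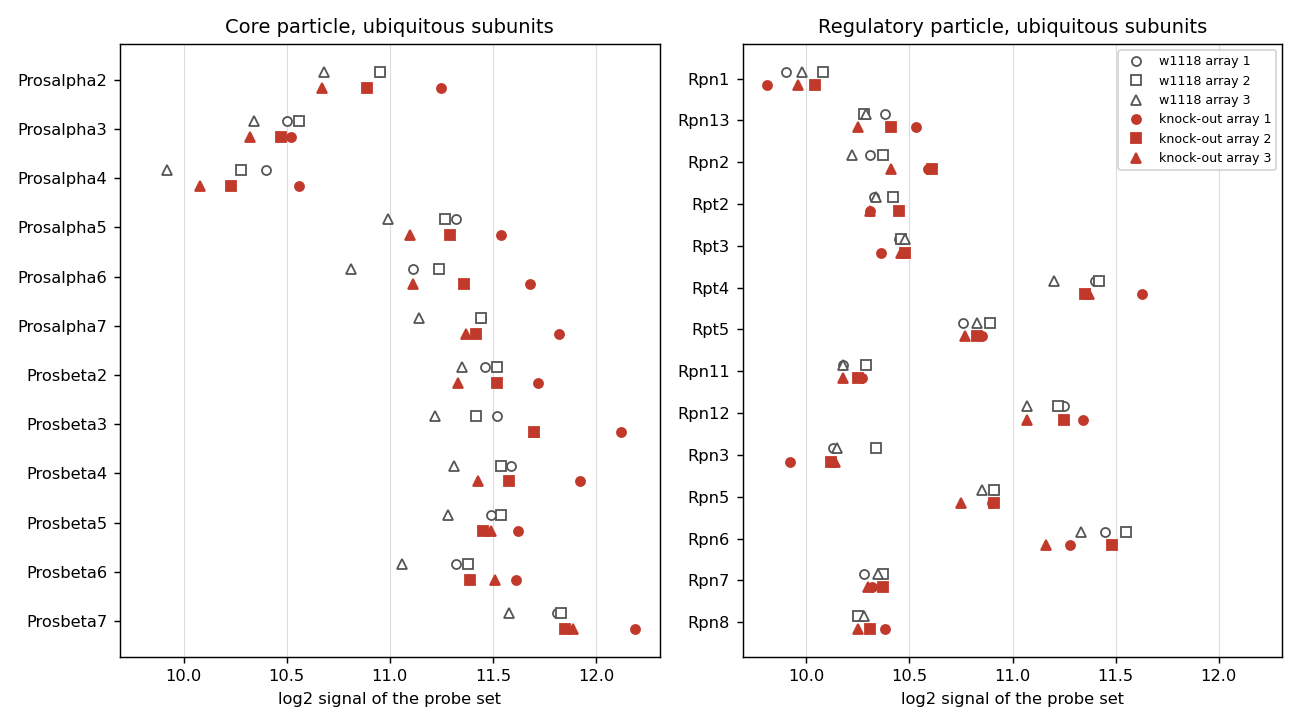
Log2 signal (horizontal axis) of each ubiquitous core and regulatory particle gene on the 6 arrays, with open grey symbols for w1118, filled red symbols for the knock-out, and the shape giving the replicate number. In the core panel knock-out array 1 (filled circle) is the highest knock-out array for all 12 genes and w1118 array 3 (open triangle) the lowest w1118 array for all 12.

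The core genes shared their highest knock-out array and their lowest w1118 array. Knock-out array 1 was the highest of the 3 knock-out arrays for 12 of 12 core genes, and w1118 array 3 the lowest of the 3 w1118 arrays for 12 of 12. Among all genes these shares were 44.7% and 39.3%, and among the 1842 genes whose mean lay within the range of the ubiquitous subunits they were 39.3% and 49.7%. For the regulatory particle the counts were 6 and 5 of 14. As deviations from each gene's mean over the 6 arrays, the core median was 0.01, 0.02 and −0.27 on w1118 arrays 1 to 3 and 0.32, 0.01 and −0.12 on knock-out arrays 1 to 3. The regulatory median stayed between −0.04 and 0.04 on every array. The spread within genotypes differed accordingly, with a median standard error of the difference of 0.13 in the core and 0.08 in the regulatory particle.

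Without knock-out array 1 the median difference of the core genes was 0.03, and 7 of 12 lay above 0. Without w1118 array 3 it was 0.06, with 9 of 12 above 0. Within the numbered pairs, all 12 core genes were higher in the knock-out in pair 1 (median 0.29), 7 in pair 2 (median 0.00) and 9 in pair 3 (median 0.18). The weights of the arrays were 0.369 for knock-out array 1, 4.46 for w1118 array 1 and 0.651 to 1.11 for the other 4. Knock-out array 1 also had the lowest summed late-embryo marker signal. Its log2 was 13.45 to 13.63 in w1118 and 12.87, 13.29 and 13.39 on knock-out arrays 1 to 3, a sum set mainly by the bright cuticle genes obst-A, serp and verm. Of that list's 6 measured genes, 0 of them below the first quartile on average, 5 had a difference below 0, and Cpr49Ac was called (−0.40, limma adjusted p = 0.025). The neuronal gene elav had the largest absolute difference of that list, −0.49 (limma adjusted p = 0.17, and 0.0204 with the replicate block). The glial gene repo stood at 0.30 (limma adjusted p = 0.125). Of the 6 patterning markers 5 lay above 0, with a median of 0.16 and 0 called by limma or at an unadjusted p below 0.05. The part of these markers, and of the 3′ to 5′ control, in the core particle's values was not tested.

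**Figure D3:**
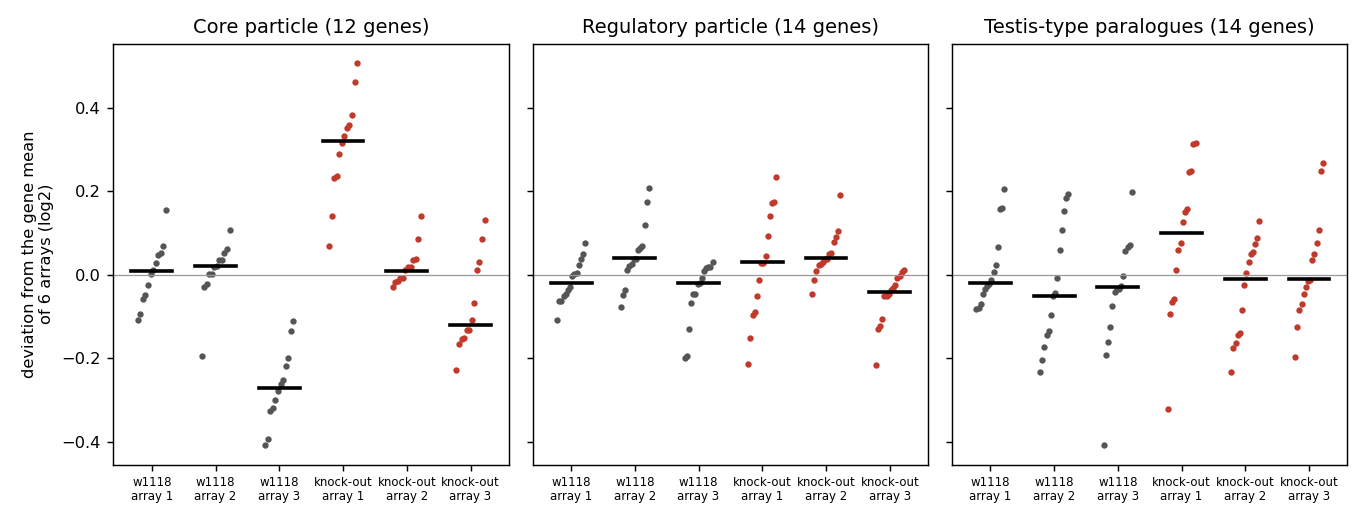
Deviation of each gene from its own mean over the 6 arrays (vertical axis, log2) on each array, for core particle, regulatory particle and testis-type genes, with 1 point per gene and a bar at the median. The core median is 0.32 on knock-out array 1 and −0.27 on w1118 array 3, while the regulatory median stays between −0.04 and 0.04.

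The regulatory particle showed small differences in both directions. In the base, made of the Rpt ATPases and the scaffold subunits Rpn1 and Rpn2, the largest difference was that of Rpn2. Rpn2 read 10.31, 10.37 and 10.22 in w1118 and 10.59, 10.61 and 10.41 in the knock-out. Every knock-out array was higher than every w1118 array, and within the numbered pairs it was higher by 0.28, 0.24 and 0.19. Its difference was 0.24, or 1.18-fold (SE 0.09, limma adjusted p = 0.187, and 0.118 with the replicate block). Rpn1, which docks ubiquitin shuttle factors, had a difference of −0.05, and the ubiquitin receptor gene Rpn13 one of 0.08. Of the 4 ATPase genes measured, Rpt4 stood at 0.12 (95% interval −0.13 to 0.36). Rpt2, Rpt3 and Rpt5 lay between −0.03 and 0.00, and each interval stayed within −0.20 and 0.17.

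In the lid 0 of 7 genes separated the genotypes. Rpn3 had the largest difference, reading 10.13, 10.34 and 10.15 in w1118 and 9.92, 10.12 and 10.14 in the knock-out. Its genotypes overlapped, with a difference of −0.15 (SE 0.09, limma adjusted p = 0.464). Rpn6, whose human counterpart clamps the lid to the core, had a difference of −0.13 (95% interval −0.37 to 0.10). Rpn11, the deubiquitinase of the lid, had 0.02 (−0.15 to 0.19), and its partner Rpn8 had 0.05 (−0.11 to 0.22). Rpn5, Rpn7 and Rpn12 lay between −0.04 and 0.04.

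The testis-type paralogues gave low signals in both genotypes. All 14 had a mean below the array median, and 9 had a mean below the first quartile of the arrays, where a low signal cannot be told from background. Their signals ran from 3.38 to 5.90, and those of the 26 ubiquitous genes from 9.81 to 12.19, each of the 26 above the array median on all 6 arrays. The 2 with the highest means were Rpt3R, between 5.18 and 5.90, and Rpn13R, between 5.08 and 5.65, and for both the genotypes overlapped. The 9 below the first quartile were Prosalpha3T, Prosalpha4T1, Prosalpha4T2, Prosalpha6T, Prosbeta4R1, Prosbeta4R2, Prosbeta5R1, Prosbeta5R2 and Rpn12R.

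The median difference of the 14 paralogues was 0.02, with 9 above 0. Prosbeta2R2, a paralogue of Prosbeta2, had the smallest p of the 40 members. It read 4.79, 4.70 and 4.68 in w1118 and 5.12, 4.96 and 4.98 in the knock-out. Every knock-out array was again above every w1118 array, and the difference was 0.30, or 1.23-fold (SE 0.08, limma adjusted p = 0.0882, and 0.067 with the replicate block). Its ubiquitous counterpart Prosbeta2 stood at 0.08, and the second paralogue, Prosbeta2R1, at 0.05. The genotypes also separated for Prosbeta5R1, at 3.38 to 3.41 in w1118 and 3.50 to 3.51 in the knock-out, which lies below the first quartile on every array. Rpt4R, just above the first quartile on average, had a difference of 0.01 (95% interval −0.16 to 0.18).

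Testis marker genes, set beside these paralogues, were mostly dim as well. Of 24 measured, 18 had a mean below the first quartile, among them can, sa, dj and Mst87F. Over the 24 the median difference was −0.01, with 11 above 0 and 13 below. The log2 of their summed signal was 10.06 to 10.11 in w1118 and 9.87 to 9.89 in the knock-out, and the bright markers bol and mia (−0.29) contributed most to it. A single marker was called, the germline gene bol, with a difference of −0.49 by the brightest of its 3 probe sets (limma adjusted p = 0.0168). The part of these markers in the paralogues' values was not tested.

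**Figure D4:**
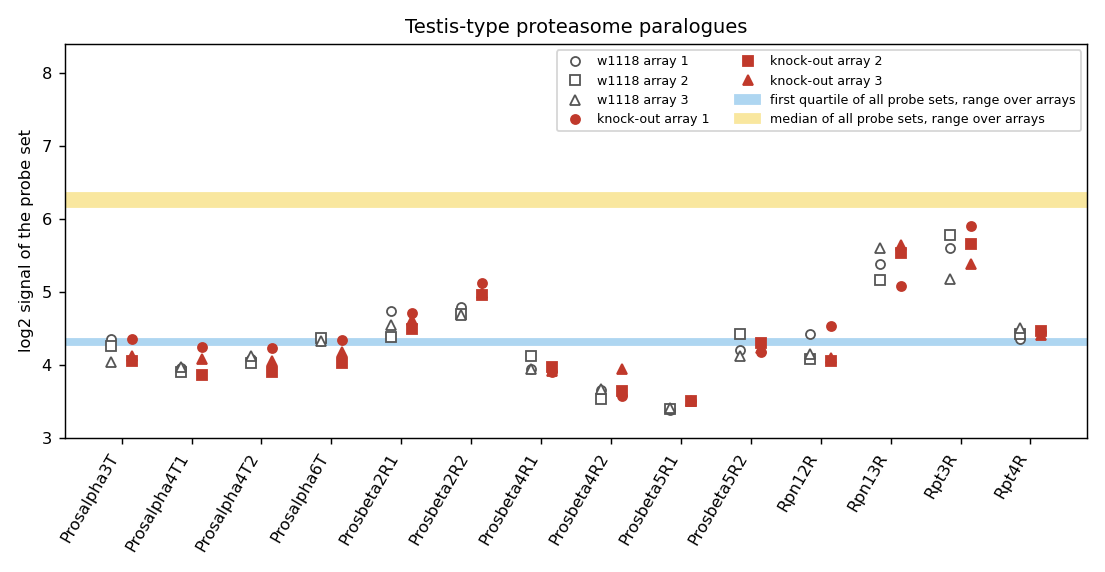
Log2 signal (vertical axis) of the 14 testis-type paralogues on the 6 arrays, with open grey symbols for w1118 and filled red symbols for the knock-out. The bands give the range over arrays of the first quartile (4.28 to 4.36) and of the median (6.17 to 6.36) of all probe sets, and all points lie below the median band.

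The proteasome genes were spread over the genome, with 12 on 3R, 6 on 3L, 9 on 2R, 8 on 2L and 5 on X. The knock-out's called genes were more frequent on chromosome 3, which carries Clbn, at 7.09% of its 5318 measured genes. The 18 members on chromosome 3 included all 4 with an unadjusted p below 0.05, and the 22 members on X and 2 included 0, where 27% of all genes on chromosome 3 and 19.6% on X, 2 and 4 were at that level. Of the core genes, the 5 on chromosome 3 had a median difference of 0.24 and the 7 on X and 2 one of 0.12. The regulatory genes on chromosome 3 had a median of 0.00 and those on X and 2 one of 0.02. The member closest to Clbn on arm 3R was Rpt2, 189 measured genes away, followed by Rpt5 at 209. Rpn2 lay 393, Prosbeta3 1756 and Prosbeta2R2 2184 measured genes away, and Prosbeta6 is on arm 3L. Whether the position on chromosome 3 bears on Prosbeta3, Prosbeta6, Rpn2 or Prosbeta2R2 was not tested.

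Around the proteasome, both polyubiquitin genes were higher in the knock-out. The 8 lists of ubiquitin and proteasome pathway genes held 70 measured genes, of which 4 were called, all higher, or 5.71%. Of all genes 4.51% were called, 1.88% higher and 2.63% lower. Ubi-p63E, which encodes a chain of ubiquitin repeats, read 11.93, 12.01 and 11.98 in w1118 and 12.32, 12.39 and 12.52 in the knock-out. All knock-out arrays were higher, and the gene rose by 0.44, or 1.36-fold (SE 0.08, limma adjusted p = 0.0279). Ubi-p5E, the second polyubiquitin gene, read 11.65, 11.63 and 11.72 in w1118 and 12.12, 12.04 and 12.11 in the knock-out. It rose by 0.42, or 1.34-fold (SE 0.07, limma adjusted p = 0.0201), again with every knock-out array above every w1118 array. Ubiquitin repeats are nearly identical in sequence and the Ubi-p63E probe set carries the suffix for sets shared between transcripts, so these 2 measurements may not be independent.

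The calls of both polyubiquitin genes were lost without some single arrays, while the size of their differences changed little. With 1 array left out fewer probe sets were called over the whole array, 190 to 607 against 668. A lost call is therefore no evidence about the array left out. Leaving out any 1 array gave 0.38 to 0.48 for Ubi-p63E and 0.41 to 0.45 for Ubi-p5E. The call of Ubi-p63E was lost without w1118 array 1, 2 or 3 or knock-out array 2 or 3 (limma adjusted p between 0.0583 and 0.137), and that of Ubi-p5E without w1118 array 1, 2 or 3 or knock-out array 3 (0.0561 to 0.11). Both kept it without knock-out array 1. The 2 genes that encode ubiquitin fused to a ribosomal protein stood at 0.04 (RpL40, 95% interval −0.12 to 0.20) and −0.04 (RpS27A, −0.19 to 0.12).

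Of 10 accessory factors, ntc was called. The gene encodes the F-box protein Nutcracker, which binds the proteasome regulator PI31 in the fly testis. It read 7.23, 7.50 and 7.04 in w1118 and 8.16, 7.82 and 8.09 in the knock-out, all knock-out arrays being higher, and it rose by 0.77, or 1.7-fold (SE 0.14, limma adjusted p = 0.0269). The call was lost without w1118 array 1 or 3 or knock-out array 1 or 3 (adjusted p between 0.0516 and 0.119), while the difference stayed between 0.66 and 0.89 over all alternatives. PI31 itself had a difference of 0.13, the core assembly chaperone gene Pomp −0.11, and the proteasome deubiquitinase genes Usp14 and Uch-L5 0.03 and 0.41 (limma adjusted p = 0.0947 for Uch-L5). The core activator gene REG stood at −0.01.

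Pngl, which encodes a peptide N-glycanase of the degradation route from the endoplasmic reticulum, was the gene called among 9 around the segregase TER94. It read 9.95, 9.93 and 9.86 in w1118 and 10.36, 10.20 and 10.27 in the knock-out and rose by 0.36, or 1.28-fold (SE 0.07, limma adjusted p = 0.0447). The knock-out arrays were all higher, but the call was lost without any 1 of the 6 arrays, with median centring (0.0514) and with quantile normalisation (0.0542). Its difference stayed between 0.32 and 0.43 over all alternatives. TER94 itself stood at −0.06.

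**Figure D5:**
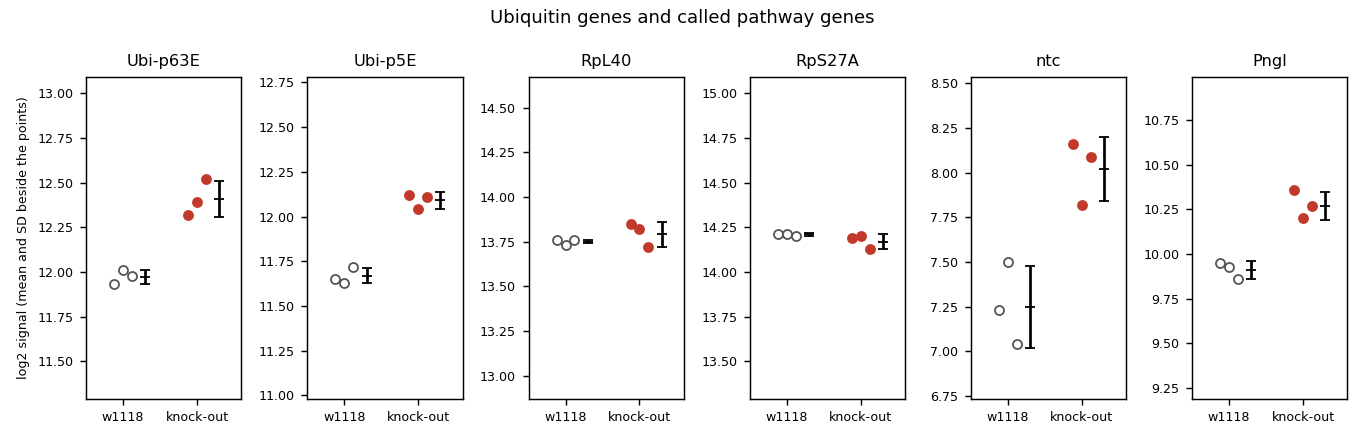
Log2 signal (vertical axes, each spanning the same width) of the 4 ubiquitin genes and of ntc and Pngl on the 3 w1118 arrays (open) and the 3 knock-out arrays (filled), with the mean and SD of each genotype beside the points. Ubi-p63E, Ubi-p5E, ntc and Pngl are higher on every knock-out array, by 0.44, 0.42, 0.77 and 0.36 on average, while RpL40 and RpS27A differ by 0.04 and −0.04.

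The other pathway lists had 0 calls by limma. The COP9 signalosome, whose subunits are related to those of the lid and which removes Nedd8 from cullins, had 9 of 9 measured genes above 0 and a median of 0.18, with 2 at an unadjusted p below 0.05. Its smallest p was that of alien, at 0.31 (limma adjusted p = 0.175). As in the core particle, knock-out array 1 was the highest of all 6 arrays for 8 of these 9 genes, as it was for 11 of 12 core genes and for 32.8% of all genes. Of 17 genes of cullin ligases and their modification 14 lay above 0, with a median of 0.04 and 1 at an unadjusted p below 0.05, APP-BP1, a subunit of the Nedd8-activating enzyme (0.47, limma adjusted p = 0.0698).

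Of 16 E2 and related genes 8 lay above 0, with 2 at an unadjusted p below 0.05, and the smallest p was that of Uev1A (0.26, limma adjusted p = 0.135). The regulators of proteasome and antioxidant genes showed no called difference and 0 of 3 at an unadjusted p below 0.05. Their differences were −0.04 for cnc, by the brighter of its 2 probe sets, 0.19 for Keap1 and 0.12 for maf-S (limma adjusted p = 0.5 for maf-S). The shuttle receptor genes Rad23 and rngo stood at 0.06 and −0.05, with 0 of 2 at that level.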

How the data were processed

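The deposited table gave a value for 18769 probe sets and 183 Affymetrix controls on each of 6 arrays, taken as log2 because of its range of 2.84 to 14.52. The submitters' processing notes name affy, with neither a version nor a role. How the authors corrected background, summarised probes and normalised is, in the sources used here, not given. The columns had similar quartiles and were used as they stand, without detection calls, and the number of arrays limits the precision. Probe sets were named from the platform annotation supplied, which can be old: 13647 had 1 symbol, 402 several and 4720 none. All 40 members matched the RefSeq gene table (Release 6 plus ISO1 MT) by identifier, which was used for names, chromosome arms and gene order only.

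Knock-out minus w1118 was fitted on all 18769 probe sets by limma's lmFit and eBayes (version 3.58.1, under R 4.3.3) without covariates, with Benjamini-Hochberg adjustment over all of them. Intervals are unadjusted 95% intervals of that fit, and SDs are over 3 arrays. The code was tested on simulated data. Tables and plots used Python 3.11.15, pandas 2.3.3 and matplotlib 3.10.9.

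Same-numbered arrays of the genotypes deviated together from their group means (correlations of 0.252, 0.227 and 0.389 over 18769 probe sets). For arrays of unlike number the correlations ran from −0.333 to 0.089. The numbers were therefore taken to pair the samples, but the main fit, its SEs and its intervals leave this pairing out. The replicate block is given where it changes a call, and also for Rpn2 and Prosbeta2R2. The alternatives were that block, median centring, quantile normalisation, array weights, 2 filters on dim probe sets, the mean of a gene's probe sets, and leaving out each array. Every member is named. Values on all arrays are given for the largest absolute difference in each class and for called genes other than markers. Of called genes the pathway lists name up to 3, or 1 of smallest p. The values of Prosbeta6, and the values of list genes beyond these, were chosen after they were seen. Members, lists and tests were chosen with earlier results of these data known.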

Additional observations from a re-analysis of the deposited data

How the results depend on the processing

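No member was called lower under any alternative run, and the replicate block, with Prosbeta3 as its single called member (count 1 against 0, in the core particle and over all 40), was the one alternative with a member called higher. The block changed no other call among the 40 members, Clbn and the 70 pathway genes. Among the marker genes it changed that of elav alone, which was called with the block. Median centring moved the median of all genes from 0.02 to 0.10. It gave medians of 0.13 for all members, 0.07 for the regulatory particle and 0.10 for the testis-type genes, with 3 regulatory genes whose genotypes did not overlap, and a core median of 0.21. Quantile normalisation gave 2 such regulatory genes, and the filter at the first quartile left 1 such testis-type gene of 5. The filter at the median left no testis-type gene, so it has no value for them. Leaving out 1 array gave core medians of 0.03 to 0.23, regulatory medians of −0.02 to 0.02, testis-type medians of 0.00 to 0.08 and medians over all members of 0.01 to 0.09. It gave 6 to 11 members without overlap, 3 to 5 in the core, 1 to 4 in the regulatory particle and 2 to 4 of the testis-type, where fewer arrays make separation easier. The share of all genes without overlap was 28.8% in the main fit and was not computed under any alternative. The counts without overlap under the alternatives are therefore no result about the members. Probe sets called over the whole array numbered 668, 1539 with array weights and 190 to 607 with 1 array left out. Near the first quartile, signal over background limits the testis-type values.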
